A study of Mus musculus with 12 samples.

Results

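Ppara, Cpt1a, Acaa2, Pex11a and Apoe, which serve fatty acid oxidation, the peroxisome and lipoprotein transport, were followed through the m6A-bound and unbound RNA of mouse kidneys. They were chosen by name and found on the array by the transcript accession of their probes. Of the 60706 probes, only the 50 A_51_P probes printed as 10 spots were matched to gene symbols. This named 45 genes, of which these are 5. Among the A_51_P probes printed as 10 spots, each gene had 1, and further probes of these genes elsewhere on the array were not looked for. The 5 probes were A_51_P348334 for Ppara, A_51_P427674 for Cpt1a, A_51_P125260 for Acaa2, A_51_P456957 for Pex11a and A_51_P171999 for Apoe. All 5 probes were well above background in both colours on every array, so that none was lost to the filter on dim probes.

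The animals were 6 male C57BL/6 mice aged 6 to 8 weeks, 3 wild type (WT) and 3 labelled METTL3-cKO, a conditional knockout (cKO) of Mettl3, which encodes the catalytic part of the m6A methyltransferase. All had been given glyoxylate intraperitoneally, 100 mg/kg in 200 µl each day for 7 days, to induce deposition of calcium oxalate crystals in the kidney. Saline-treated animals were not analysed here, so every value describes the injected kidney. The labels name neither the Cre driver nor the cells in which Mettl3 was deleted. An anti-m6A antibody divided the kidney RNA of each animal into RNA bound to the beads (the immunoprecipitate, IP; Cy5 dye) and RNA left unbound (the supernatant; Cy3 dye). Both fractions shared an array, which gave 12 samples on 6 arrays, and the labels call the animals biological replicates. IP was always Cy5, so a dye effect of a probe and its IP enrichment cannot be told apart.

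Fatty acids are the main fuel of the proximal tubule, where the ligand-activated receptor PPAR alpha switches on genes of their import into mitochondria, their beta-oxidation and the multiplication of peroxisomes. Peroxisomes shorten very long fatty acids that mitochondria do not take, and apolipoprotein E carries lipid between cells. N6-methyladenosine is written on mRNA by the METTL3 complex and read by proteins that alter the splicing, decay and translation of the transcript.

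Between 52.1% and 56.1% of probes were well above background in Cy5. In Cy3 that share reached 38.5% and 31.7% on WT arrays 1 and 3, against 49.9% to 56.9% elsewhere. The file headers place WT arrays 1 and 3 in a scan of their own (scan 1) and WT array 2 with all 3 cKO arrays in another (scan 2), and negative control spots of the supernatant channel were brighter in scan 1 (46.5 and 50.2) than in scan 2 (29.5 to 31). Genotype could therefore be compared within a scan only as 1 WT against 3 cKO arrays, and those values are given beside the results. Few genes were named, since only A_51_P probes printed as 10 spots were matched to gene symbols. A list of 28 genes of mitochondrial fatty acid oxidation and ketogenesis had 2 named probes (Cpt1a and Acaa2), 34 peroxisomal genes had 1 (Pex11a), 18 PPAR regulators and targets had 1 (Ppara) and 23 lipoprotein genes had 1 (Apoe). None of 17 genes of the m6A machinery was named, Mettl3 included, so the knockout was not checked in these files, and 1 of 49 cell type markers (Mzb1, of plasma cells) was named, so the tissue was not checked either.

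The m6A ratio is the log2 of IP over supernatant signal relative to the median probe of the array, so that 0 is the median probe and 1 is a doubling. Centring and dye normalisation remove any shift shared by all probes. A general loss of m6A in cKO would therefore not show, and a ratio above 0 there does not measure retained methylation. In WT kidneys, 4 of the 5 genes lay above the median probe and Acaa2 lay close to it. In cKO kidneys the ratio of each gene was lower on average, most for Pex11a, with a mean of 1.91 ± 0.13 in WT and 0.65 ± 0.35 in cKO (SD, n = 3 each). No difference between genotypes passed an adjusted p of 0.05 (limma, Benjamini-Hochberg over all 28350 probes tested). Only 0.00353% of all probes, a single probe that was not matched to a gene name, passed that threshold. At an unadjusted p of 0.05, 2 of the 5 genes passed (Pex11a and Ppara), against 16.2% of all probes.

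**Figure D1:**
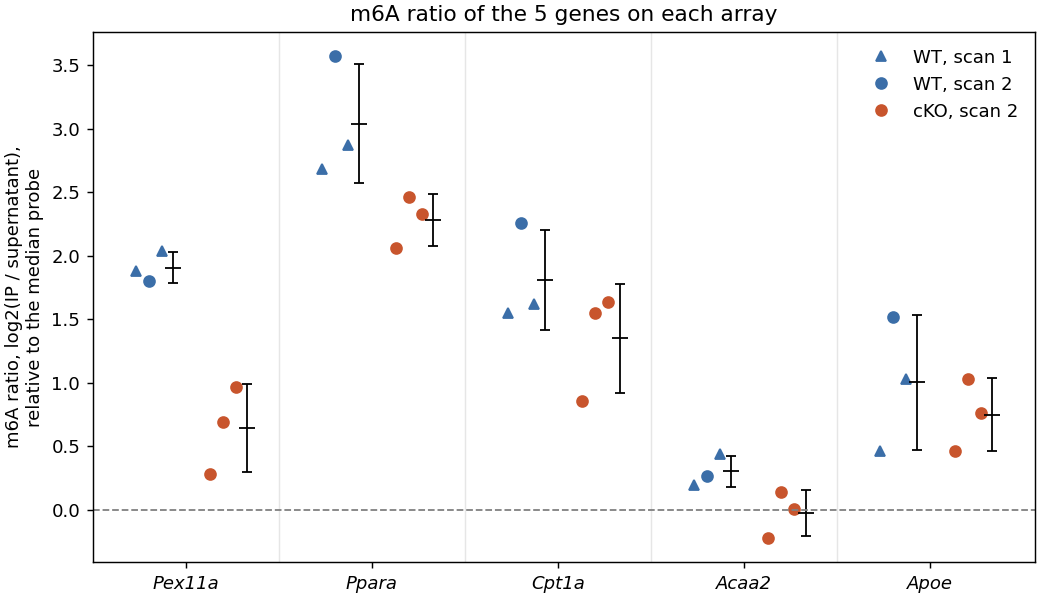
The m6A ratio (log2 of IP over supernatant signal, relative to the median probe of the array at 0) of the 5 genes on each array, with the mean and SD of 3 arrays per genotype. Triangles mark scan 1, circles scan 2; the WT and cKO arrays of Pex11a lie apart, from 1.80 to 2.04 and from 0.28 to 0.97, while those of Cpt1a and Apoe overlap.

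Ppara encodes PPAR alpha itself. Its m6A ratio was 2.68, 3.57 and 2.87 on the WT arrays (1, 2 and 3 in this order) and 2.06, 2.46 and 2.33 on the cKO arrays. All WT arrays were above all cKO arrays, the highest value being that of WT array 2. The means were 3.04 ± 0.47 and 2.28 ± 0.21 (SD, n = 3 each), a difference of −0.76 ± 0.29 (SE; 95% interval −1.41 to −0.10; limma adjusted p = 0.261). Within scan 2 the difference was −1.29, and without WT array 2 it was −0.49. The probe remained among the most IP-enriched in both genotypes: its ratio exceeded that of 95.5% to 99.2% of tested probes on the WT arrays and 97.2% to 97.5% on the cKO arrays, ranges that overlap.

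Cpt1a encodes carnitine palmitoyltransferase 1A, the outer mitochondrial membrane enzyme that commits long-chain fatty acids to import. On WT arrays 1, 2 and 3 its ratio was 1.55, 2.26 and 1.62, and on the cKO arrays 0.86, 1.55 and 1.64. The groups overlapped, with cKO array 1 low and WT array 2 high. The difference was −0.46 ± 0.31 (SE; 95% interval −1.16 to 0.24; limma adjusted p = 0.473), and it was −0.91 within scan 2, −0.24 without WT array 2 and −0.22 without cKO array 1.

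Acaa2 encodes mitochondrial acetyl-CoA acyltransferase 2, the thiolase of the last step of beta-oxidation. It had ratios of 0.20, 0.27 and 0.44 on the WT arrays and −0.22, 0.14 and 0.01 on the cKO arrays. The groups did not overlap, but the gap between them was small and closed when arrays were centred on the tested probes instead of all probes (WT 0.02 to 0.30, cKO −0.18 to 0.12). The difference was −0.33 ± 0.22 (SE; 95% interval −0.83 to 0.17; limma adjusted p = 0.475), and −0.29 within scan 2.

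Pex11a encodes peroxin 11 alpha, a peroxisomal membrane protein that promotes elongation and division of the organelle. Its ratio was 1.88, 1.80 and 2.04 on the WT arrays and 0.28, 0.69 and 0.97 on the cKO arrays. Every WT array was above every cKO array, and the WT arrays of both scans lay close together. The difference was −1.26 ± 0.25 (SE; 95% interval −1.83 to −0.69), a 2.40-fold lower ratio of IP to supernatant in cKO (limma adjusted p = 0.0981), which misses the threshold. Within scan 2 it was −1.15, and leaving out single arrays moved it between −1.42 and −1.08. When only probes well above background on all 6 arrays were tested, the same difference had a limma adjusted p of 0.0256. It was 1 of 301 calls under that filter, whose share of the probes tested is not given here. The Pex11a difference passed under no other setting. Of all tested probes, 2.37% had a lower difference. The rank of the probe on its own array does not depend on the centring: its ratio exceeded 92.3%, 90.6% and 88% of tested probes on the WT arrays and 63.5%, 74.4% and 83.2% on the cKO arrays.

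Apoe encodes apolipoprotein E. Its ratio was 0.46, 1.52 and 1.03 on the WT arrays and 0.46, 1.03 and 0.76 on the cKO arrays. The groups overlapped over most of their range, and the WT arrays were the most spread of any of the 5 genes (SD 0.53). The difference was −0.25 ± 0.31 (SE; 95% interval −0.97 to 0.47; limma adjusted p = 0.703). It was −0.77 within scan 2. It moved to −0.53 without WT array 1, 0.01 without WT array 2, −0.11 without cKO array 1 and −0.39 without cKO array 2, so that its size depended on which arrays were kept.

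Read together, 5 of 5 genes had a lower mean ratio in cKO, with a median difference of −0.46, and 3 of 5 had groups that did not overlap with cKO below WT (Ppara, Acaa2 and Pex11a), against 16.6% of all tested probes. The median difference of all tested probes was itself −0.14, and 61.9% of them were below 0. With each array centred on its tested probes, a choice made after the data were seen, the differences were −1.09 for Pex11a, −0.59 for Ppara, −0.30 for Cpt1a, −0.16 for Acaa2 and −0.09 for Apoe. Under this centring the groups of Acaa2 overlapped. Those of Ppara nearly met (lowest WT array 2.50, highest cKO array 2.45), and those of Pex11a stayed apart (1.70 and 1.04). The share of all probes without overlap was not counted under it. The ratios of all tested probes were also less spread on cKO arrays, with an interquartile range of 1.30 to 1.43, than on WT arrays, with 1.59 to 1.94. What part this narrower spread has in the lower ratios of enriched genes was not tested.

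Because all 5 probes share an array, the ratio of Pex11a can also be set against that of each other gene on the same array, which removes any centring. These contrasts were chosen after the values were seen and carry no test. Pex11a exceeded Acaa2 by 1.68, 1.53 and 1.60 on the WT arrays and by 0.50, 0.55 and 0.97 on the cKO arrays, a separation of 0.56 between the groups. Against Cpt1a the groups were 0.11 apart and against Apoe 0.06 apart, with Pex11a relatively lower in cKO in both. Against Ppara they overlapped, at −0.80, −1.77 and −0.83 on the WT arrays and −1.78, −1.77 and −1.36 on the cKO arrays. The difference of Pex11a relative to Ppara was thus within the spread between arrays.

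**Figure D2:**
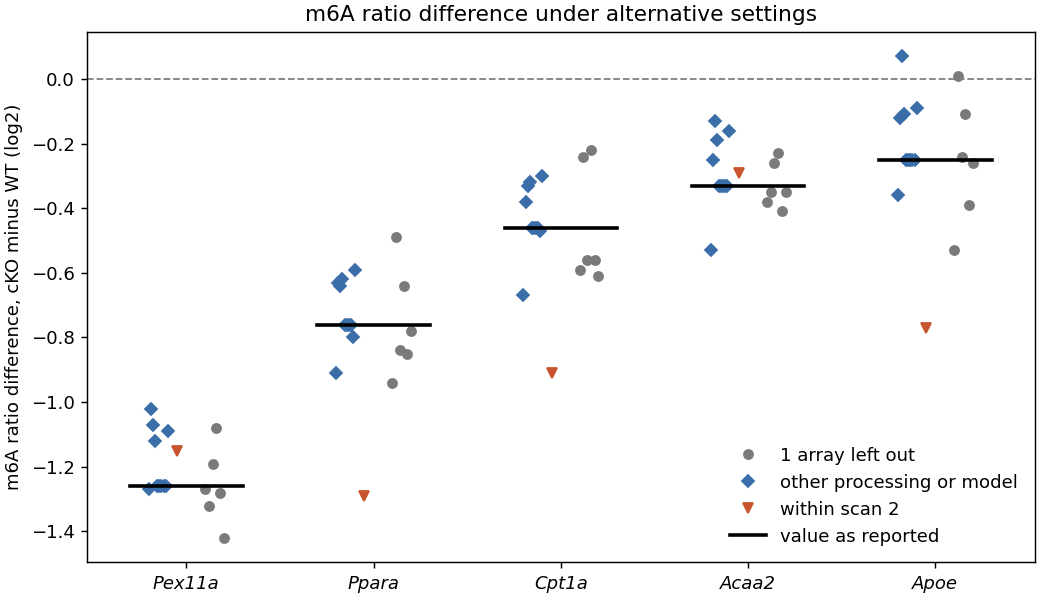
Difference in the m6A ratio between genotypes (cKO minus WT, log2) for the 5 genes as reported (bar), with 1 array left out (grey), under other processing or models (blue) and within scan 2 (red triangle). Pex11a stays between −1.42 and −1.02 in all of them, whereas Apoe runs from −0.77 to 0.07.

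Within a genotype, a ratio above 0 means that a transcript was more IP-enriched than the median probe. In WT the fold over the median probe was 8.23 for Ppara (adjusted p = 7.97e-06), 3.75 for Pex11a (3.38e-05), 3.51 for Cpt1a (1.29e-04) and 2.00 for Apoe (0.00388), all by limma. Acaa2 was 1.23-fold over the median probe and did not pass (adjusted p = 0.116). Thus 4 of 5 genes passed in WT, against 36.8% of all tested probes. In cKO the same 4 genes passed, against 26.6% of all probes. The folds there were 4.87 for Ppara (adjusted p = 4.53e-05), 2.55 for Cpt1a (9.22e-04), 1.68 for Apoe (0.0190) and 1.56 for Pex11a (0.0135), while Acaa2 was at 0.981 (adjusted p = 0.895). Both genotypes passed together for these 4 genes and for 24.7% of all probes. The counts of all probes depend on the centring. Above the median probe there were 10432 in WT and 7537 in cKO as reported, and 9403 and 8074 when arrays were centred on the tested probes. In cKO the call of Pex11a was lost without cKO array 2 (ratio 0.62, adjusted p = 0.0706) or cKO array 3 (0.48, 0.120), and that of Apoe likewise (0.61, 0.121, and 0.75, 0.0843).

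The separate fractions were compared next. For Pex11a the genotypes lay apart in the supernatant and overlapped in the IP fraction, though neither difference passed the threshold. Scaled to the 75th percentile of the channel, its log2 supernatant signal was 3.21, 2.17 and 2.77 on the WT arrays and 4.33, 3.56 and 3.41 on the cKO arrays. Every cKO array was above every WT array. The difference was 1.05 ± 0.34 (SE; 95% interval 0.26 to 1.83), 2.07-fold higher in cKO (limma adjusted p = 0.317). Its log2 IP signal was 4.96, 3.99 and 4.61 in WT against 4.65, 4.15 and 4.40 in cKO. The difference there was −0.12 ± 0.29 (SE; limma adjusted p = 0.895). Before any scaling, the background-subtracted supernatant intensity of Pex11a was 353, 293 and 151 in WT against 1340, 618 and 600 in cKO, and its IP intensity was 1804, 798 and 1511 in WT against 1734, 1155 and 1378 in cKO. These unscaled values also carry the brightness of each array: in the supernatant, WT array 3 was the dimmest for each of the genes followed. Within scan 2 the scaled supernatant difference of Pex11a was 1.59 and its IP difference was 0.41. With 1 array left out, the former ran from 0.77 to 1.30 and the latter from −0.39 (without WT array 2) to 0.10 (without WT array 1).

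**Figure D3:**
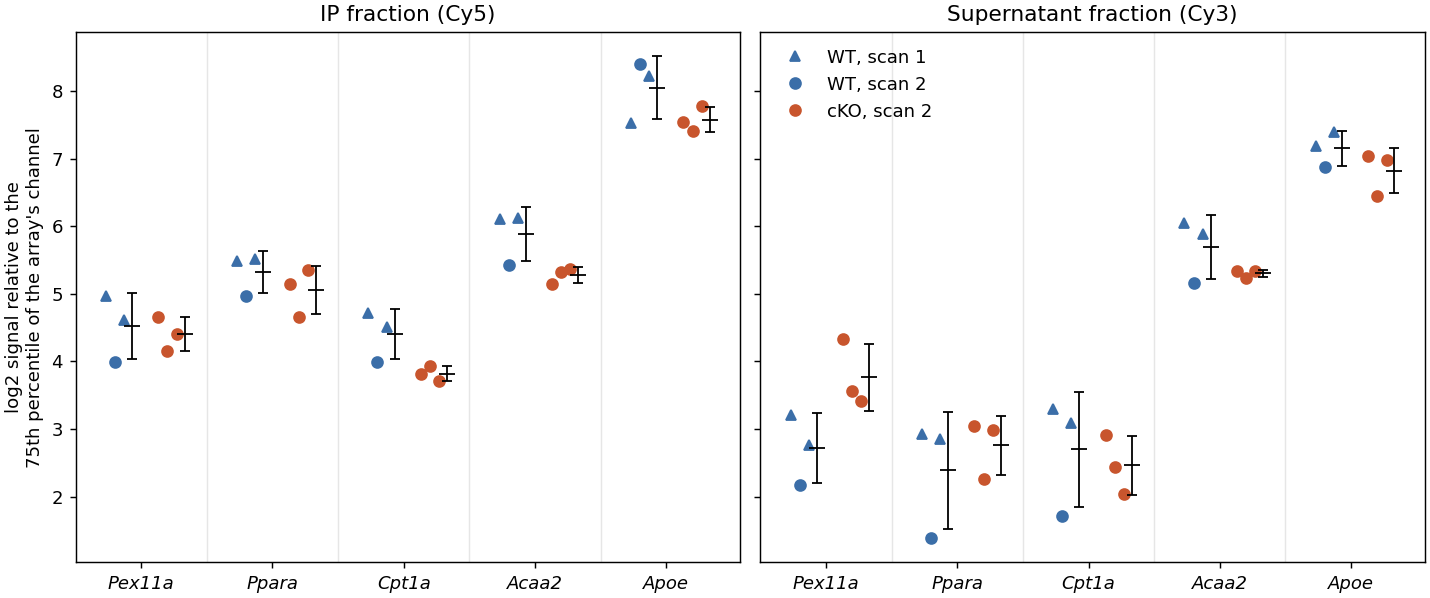
Log2 signal of the 5 genes in the IP fraction (left) and the supernatant fraction (right) on each array, relative to the 75th percentile of that array's channel, with the mean and SD of 3 arrays per genotype. The Pex11a supernatant is the case in which all cKO arrays, from 3.41 to 4.33, lie above all WT arrays, from 2.17 to 3.21; heights of different genes are not comparable.

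For Ppara the genotypes overlapped in both fractions. Its supernatant signal was 2.93, 1.39 and 2.85 in WT against 3.04, 2.26 and 2.98 in cKO, so that WT array 2 alone stood low. The difference was 0.37 ± 0.43 (SE; limma adjusted p = 0.862), and it was 1.37 within scan 2, −0.13 without WT array 2 and 0.64 without WT array 1. Its IP signal was 5.48, 4.96 and 5.51 in WT against 5.14, 4.66 and 5.35 in cKO, a difference of −0.27 ± 0.27 (SE; limma adjusted p = 0.723). Within scan 2 this turned to 0.09, and with 1 array left out it ran from −0.45 (without WT array 2) to −0.07 (without cKO array 2).

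Cpt1a and Acaa2, the mitochondrial enzymes, had lower mean IP signals in cKO, short of the threshold. The IP signal of Cpt1a was 4.71, 3.99 and 4.51 in WT against 3.82, 3.93 and 3.71 in cKO, and that of Acaa2 was 6.11, 5.43 and 6.12 in WT against 5.15, 5.32 and 5.37 in cKO. In both, the cKO arrays were below the WT arrays, but WT array 2 stood close to them and WT arrays 1 and 3, of scan 1, stood high. The differences were −0.59 ± 0.25 for Cpt1a (SE; limma adjusted p = 0.403) and −0.61 ± 0.25 for Acaa2 (SE; adjusted p = 0.400). Within scan 2, with its 1 WT array, they were −0.17 and −0.15. In the supernatant the 2 genes overlapped between genotypes, with differences of −0.24 ± 0.43 for Cpt1a and −0.39 ± 0.26 for Acaa2 (SE; adjusted p = 0.929 and 0.681), which became 0.74 and 0.14 within scan 2. Leaving out 1 array moved them from −0.73 (without WT array 2) to 0.06 (without WT array 1) for Cpt1a and from −0.66 to −0.22 (the same arrays) for Acaa2.

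Apoe overlapped between genotypes in both fractions. Its IP signal was 7.52, 8.40 and 8.22 in WT against 7.54, 7.41 and 7.78 in cKO, and its supernatant signal was 7.19, 6.87 and 7.39 in WT against 7.04, 6.44 and 6.98 in cKO. WT array 1 lay within the cKO range of the IP signal, and the other WT arrays lay above it. The differences were −0.47 ± 0.28 (SE; limma adjusted p = 0.532) in the IP fraction and −0.33 ± 0.25 (SE; adjusted p = 0.732) in the supernatant, and −0.82 and −0.05 within scan 2. With 1 array left out, the IP difference ran from −0.74 (without WT array 1) to −0.29 (without WT array 2), and the supernatant difference from −0.47 to −0.14 (without cKO array 2), with −0.21 without WT array 3.

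Over the 5 genes no fraction difference passed an adjusted p of 0.05, against 0.0925% of all probes in the IP fraction and 0.221% in the supernatant. At an unadjusted p of 0.05 there were 2 of 5 in the IP fraction (Cpt1a and Acaa2) against 11.8% of all probes, and 1 of 5 in the supernatant (Pex11a) against 10.3%. Groups did not overlap, with cKO below WT, for 2 of 5 in the IP fraction against 10.8%, and with cKO above WT for 1 of 5 in the supernatant against 9.51%.

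**Figure D4:**
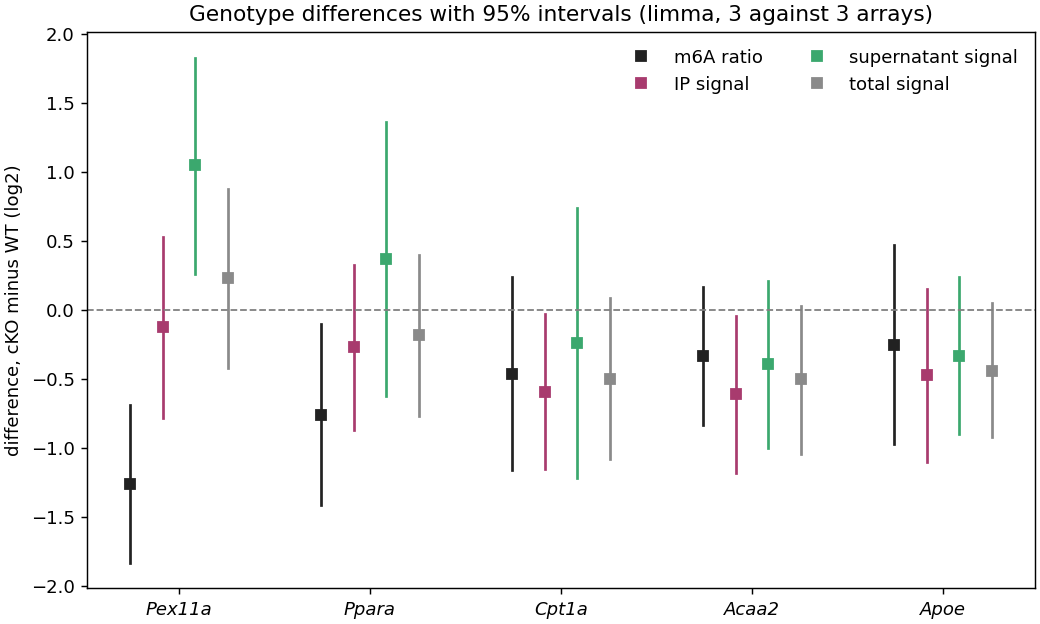
Genotype differences (cKO minus WT, log2) of the 5 genes with their 95% intervals from limma, for the m6A ratio, the IP signal, the supernatant signal and the summed total signal, 3 arrays per genotype. For Pex11a the interval of the ratio (−1.83 to −0.69) and that of the supernatant (0.26 to 1.83) exclude 0 on opposite sides, and the IP and total signals span 0; these intervals are not adjusted for the number of probes.

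The total signal, the log2 of the sum of both scaled fractions, was used as a rough stand-in for the abundance of a transcript. Each fraction was scaled on its own first, so the true shares of RNA in IP and supernatant are not kept. For Pex11a in WT the scaled IP signal was the larger (mean 4.52 against 2.72), which weights its total to the IP. Total signals of the WT and cKO arrays overlapped for each of the 5 genes. None passed an adjusted p of 0.05 in limma, against 0.180% of all probes. None passed an unadjusted p of 0.05, against 9.68%. None had groups apart with cKO below WT, against 9.27%. In whole kidney RNA, fewer cells of a type and less RNA per cell cannot be told apart.

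Ppara had total signals of 5.71, 5.08 and 5.72 in WT against 5.44, 4.91 and 5.61 in cKO, a difference of −0.18 ± 0.26 (SE; 95% interval −0.77 to 0.40; limma adjusted p = 0.912). Pex11a had 5.34, 4.36 and 4.97 in WT against 5.50, 4.87 and 4.99 in cKO, a difference of 0.23 ± 0.28 (SE; −0.42 to 0.88; adjusted p = 0.895). In both genes the ranges overlapped widely. The intervals leave room for a change of up to 0.88 in the total signal of Pex11a, so equal abundance was not shown. Within scan 2 the values were 0.24 for Ppara and 0.76 for Pex11a. With 1 array left out, that of Ppara ran from −0.40 (without WT array 2) to 0.02 (without cKO array 2) and that of Pex11a from −0.04 (without WT array 2) to 0.46 (without WT array 1).

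Cpt1a had total signals of 5.17, 4.25 and 4.97 in WT against 4.43, 4.37 and 4.10 in cKO, and Acaa2 had 7.08, 6.30 and 7.01 in WT against 6.24, 6.28 and 6.35 in cKO. The split followed the scan: WT arrays 1 and 3 were high, and WT array 2 lay inside the cKO range. The differences were −0.50 ± 0.26 for Cpt1a (SE; 95% interval −1.08 to 0.09; limma adjusted p = 0.611) and −0.50 ± 0.23 for Acaa2 (SE; −1.04 to 0.03; adjusted p = 0.547). Within scan 2 they were 0.05 and −0.01. With 1 array left out, that of Cpt1a ran from −0.77 (without WT array 2) to −0.31 (without WT array 1) and that of Acaa2 from −0.75 to −0.36. Apoe had 8.36, 8.83 and 8.87 in WT against 8.31, 8.00 and 8.44 in cKO, with WT arrays 2 and 3 above all cKO arrays. Its difference was −0.44 ± 0.21 (SE; 95% interval −0.92 to 0.05; adjusted p = 0.576), and −0.58 within scan 2.

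**Figure D5:**
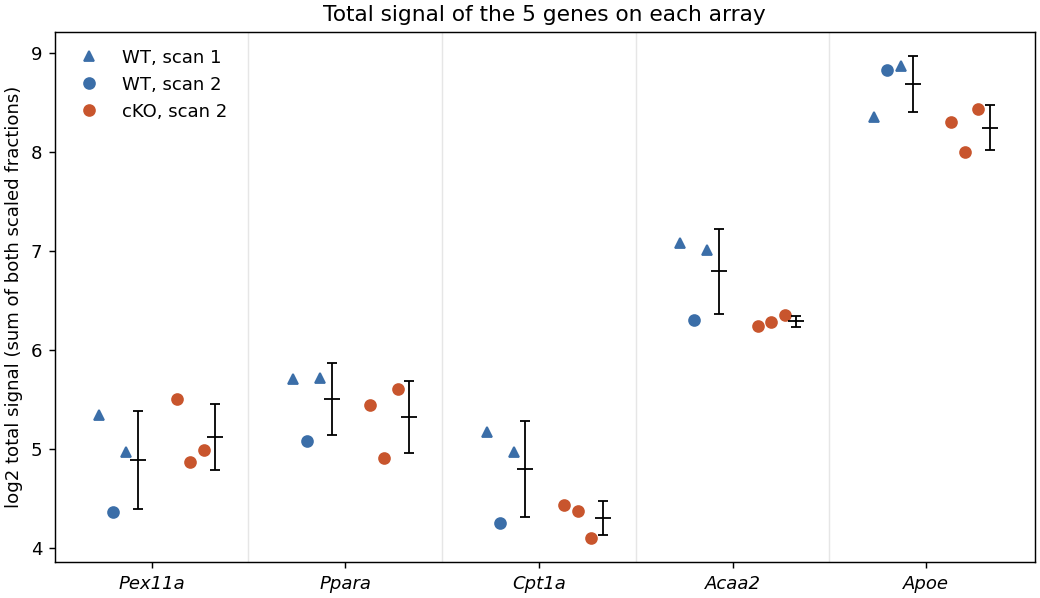
Log2 total signal (sum of both scaled fractions) of the 5 genes on each array, with the mean and SD of 3 arrays per genotype; triangles mark scan 1 and circles scan 2. For Cpt1a and Acaa2 the WT arrays of scan 1 (4.97 to 5.17 and 7.01 to 7.08) lie above all others, and the WT array of scan 2 (4.25 and 6.30) lies among the cKO arrays; heights of different genes are not comparable.

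The repeated spots give the measuring error within an array. The spread between arrays adds differences between animals and between separate IP and array runs. These cannot be told apart with 1 array per animal, and the WT arrays also came from 2 scans. Within an array, the SD of the log2 ratio over the unflagged spots of a probe ran from 0.036 to 0.0849 for Apoe and from 0.0944 to 0.188 for Ppara. Between arrays of a genotype the SD was 0.53 and 0.29 for Apoe and 0.47 and 0.21 for Ppara (WT and cKO). For Ppara in cKO, 0.21 was close to the highest SD of single spots, 0.188. Each array value is a mean of 9 to 10 spots, however, so its measuring error is smaller than that of 1 spot. Acaa2 was the most even gene, with 0.12 in WT and 0.18 in cKO. Pex11a had an SD of 0.13 in WT and 0.35 in cKO, and its ratio rested on 6 to 10 unflagged spots, against at least 8 for the other genes.

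Among the 21 other named genes well above background on all arrays, those whose 6 ratios were nearest to each of the 5 genes were taken by the root mean square difference. Pex11a was nearest to Carhsp1 (0.31), which encodes a calcium-regulated RNA-binding protein, and to Nup50 (0.40), a nuclear pore component. Carhsp1 went from 1.59 in WT to 0.83 in cKO and Nup50 from 1.70 to 1.03, and neither difference passed (limma adjusted p = 0.196 and 0.232). Cpt1a was nearest to Dnajc11 (0.29) and Carhsp1 (0.47), Acaa2 to H2-M2 (0.18) and Olfr166 (0.32), and Apoe to Gsdmd (0.28) and Bambi (0.29). Ppara had no close neighbour, the nearest being Uhrf1bp1l at 0.60 and Rab5a, a small GTPase of early endosomes, at 0.74. These distances take in the size of the ratio as well as its course over the 6 arrays.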

How the data were processed

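Both fractions of 6 kidneys were measured on 6 two-colour arrays. Agilent Feature Extraction 11.0.1.1 gave the deposited intensity values, per the submitters' processing notes. Per the file headers, the processed signals used here are background-subtracted and dye-normalised. Groups came from the sample labels, and no 2 arrays held identical values. From there, R 4.3.3 with limma 3.58.1 and data.table (version 1.17.8) was used. Control spots, 117 probes marked as spike-in or negative, and spots marked as outliers or non-uniform were left out. Spots of a probe were averaged as log2 values. The ratio was centred on the array's median probe, and each fraction was divided by its 75th percentile. A probe was tested if 3 or more of 6 arrays had it well above background (for probes with 10 spots, on a share of 0.5 of them) with values on at least 2 arrays per genotype. lmFit and eBayes, two-sided, were run over all such probes, 28350 for the ratio, with Benjamini-Hochberg adjustment. With 3 arrays per genotype, their number limits the precision.

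Only A_51_P probes printed as 10 spots were matched to gene symbols. Of these 50 probes, 45 matched a symbol in a RefSeq gene list of assembly GRCm38.p6, from which names alone were taken. The genes named are the 5 chosen, any other member of the pathway lists with a named probe, and the 2 genes nearest in ratio to each of the 5. These genes and lists were chosen with earlier results of these data known. The calculations were tested on simulated data. Alternatives were normexp (offset 50), normexp with loess and Aquantile, background-subtracted signals (values under 1 set to 1), other centring and scaling, other filters, the median of spots, trend and robust variance, the replicate number or the scan as a block, scan 2 alone, and leaving out each array. Alternatives planned for slides were run on scans, which the headers give.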

Additional observations from a re-analysis of the deposited data

How the results depend on the processing

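All values here are from limma. Of the tested values of the 5 genes, 461 kept direction and side of the threshold, 26 changed direction, 6 lost a call and 2 gained one, and the cause was not tested. The genotype differences that changed direction were uncalled. With normexp the Pex11a IP difference was 0.03 and that of the Cpt1a supernatant 0.06. With background-subtracted signals the Apoe ratio difference was 0.07. With the scan as a block, as within scan 2, the total signal difference was 0.24 for Ppara and 0.05 for Cpt1a, the IP difference 0.09 for Ppara and 0.41 for Pex11a, and the supernatant difference 0.74 for Cpt1a and 0.14 for Acaa2. The Acaa2 ratio in cKO, −0.03 as reported, was 0.18 with normexp, 0.13 with background-subtracted signals and 0.01 when centred on the tested probes. Against the median probe, Pex11a in cKO lost its call with normexp (0.77, adjusted p = 0.0665), Apoe in cKO lost it without a filter (0.75, 0.0549), and Acaa2 in WT gained one with normexp, loess and Aquantile (0.24, 0.0375). The Pex11a ratio difference (−1.26) passed when probes had to be well above background on all 6 arrays (adjusted p = 0.0256). Its adjusted p ran from 0.0256 to 0.823 over the other settings and from 0.0857 to 0.386 with 1 array left out.

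Leaving out arrays moved differences across 0 as follows: Apoe ratio −0.53 to 0.01 (0.01 without WT array 2), total signal −0.40 to 0.02 for Ppara (0.02 without cKO array 2) and −0.04 to 0.46 for Pex11a (−0.04 without WT array 2), Pex11a IP −0.39 to 0.10 (0.10 without WT array 1, 0.00 without cKO array 2), supernatant −0.13 to 0.64 for Ppara (−0.13 without WT array 2) and −0.73 to 0.06 for Cpt1a (0.06 without WT array 1). In cKO, the ratio ran from −0.11 to 0.07 for Acaa2, 0.48 to 0.83 for Pex11a and 0.61 to 0.90 for Apoe.

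The counts of all probes past an adjusted p of 0.05 between genotypes moved with the setting. For the ratio, 1 as reported, the count was 0 with normexp, no filter, trend and robust variance, the replicate block or the scan as a block, 5 with background-subtracted signals, 121 with normexp, loess and Aquantile, and 301 with the filter on all 6 arrays. At an unadjusted p under 0.05 there were 4591. For the total signal, 65 as reported, it was 17 with normexp, 13 with loess and Aquantile added, 155 with trend and robust variance, 28 with the replicate block, 2 with the scan as a block and 3 within scan 2. For the IP signal, 31 as reported, it was 7, 5, 69, 7, 0 and 5 in the same order, 14 with background-subtracted signals, 47 with the filter on all 6 arrays and 4 without a filter. For the supernatant, 69 as reported, it was 23, 27, 159, 0, 1 and 158 in that order, 41 with background-subtracted signals and 16 without a filter. Ratios off the median probe in either direction numbered 18838 in WT and 16059 in cKO as reported, and 12131 and 9643 with normexp. Without WT arrays 1, 2 and 3 and cKO arrays 1, 2 and 3 in turn, the counts were 1, 0, 0, 0, 0 and 0 for the ratio, 38, 16, 6, 4, 18 and 8 for the total signal, 5, 3, 4, 2, 0 and 0 for the IP signal and 54, 7, 102, 0, 2 and 2 for the supernatant.

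With the replicate block, the Pex11a ratio difference was −1.26 (adjusted p = 0.112), and no call of the 5 genes between genotypes changed. For the ratio, deviations of same-numbered samples correlated at 0.33, 0.27 and 0.08, each the best match of its number, and for the total signal at −0.09, 0.24 and −0.03. The IP signal gave 0.10, 0.26 and 0.07, again each the best match of its number, and the supernatant −0.11, 0.17 and −0.10. The measures thus differed, and the reported values do not take same-numbered samples as pairs. The 5 probes were well above background on all 6 arrays.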
